A study of Homo sapiens with 6 samples.

Results

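Hepatic stellate cells are the pericytes of the liver sinusoid. At rest they store vitamin A as retinyl ester and carry a set of mesodermal transcription factors, and on activation they lose the retinoid droplets and lay down matrix. The 9 genes described here were grouped as genes of stellate cell identity and rest, although NES is found in activated stellate cells. All were taken by name from the 21533 genes of the deposited tables. They comprise LRAT, which esterifies retinol for storage; CYGB, the stellate cell globin; the intermediate filament genes DES (desmin) and NES (nestin); and the transcription factor genes GATA4, GATA6, LHX2, TCF21 and HAND2. GATA4 and GATA6 are zinc finger factors, LHX2 is a LIM homeodomain factor linked to the resting state, and TCF21 and HAND2 are basic helix-loop-helix factors of mesodermal mesenchyme.

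RNA was sequenced from LX-2, an immortalised human stellate cell line that the labels class as mesenchymal, grown in medium with low serum. In 3 samples the cells had been transfected with a control siRNA and in 3 samples with an siRNA against PERK, the endoplasmic reticulum stress kinase encoded by EIF2AK3. All 6 samples also received palmitic acid and were collected 24 h later, so as far as the labels say the groups differ in siRNA alone, and no lipid-free group was analysed here. The work rests on 1 cell line, and because no label ties the samples of a group to separate cultures, the p-values speak only to sample spread, possibly of technical origin. The libraries held 17937141 to 19585872 exon reads each, and 3 reads, taken as the detection floor, came to 0.153 to 0.167 CPM (reads scaled to library size), a limit that covers counting error only. EIF2AK3 itself had 254, 242 and 268 reads in the control samples and 78, 97 and 106 reads in the PERK siRNA samples, so 37.3% of its normalised control level remained. Vimentin (VIM, mean 2951 TPM, a level scaled to gene length and library size) and COL1A1 (1654 TPM) were the most abundant of the 14 mesenchymal markers examined, all of which were measured, whereas 7 hepatocyte markers of 10, among them ALB and HNF4A, had 0 reads in every sample.

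Of the 9 members, 5 were detected and 4 were not. Detection required at least 10 total exon reads in at least 1 sample. Among those detected, GATA4 and LHX2 were higher with PERK siRNA, NES was lower, and GATA6 and HAND2 did not pass the test. Thus 2 of 5 tested members rose and 1 fell at an adjusted p under 0.05 by edgeR's quasi-likelihood test. Over all 12973 genes tested, 69.5% passed that threshold, 34.4% as higher and 35.0% as lower, and 3 of 5 members is no larger a share. The median log2 fold change was 0.01 over the 5 tested members and 0.00 over all tested genes. In 4 of the 5, the CPM of the PERK siRNA samples lay wholly above or wholly below those of the control samples, which was also so for 71.8% of all tested genes. Such bulk measurements do not separate a change in how many cells carry a transcript from a change in how much each cell carries.

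**Figure D1:**
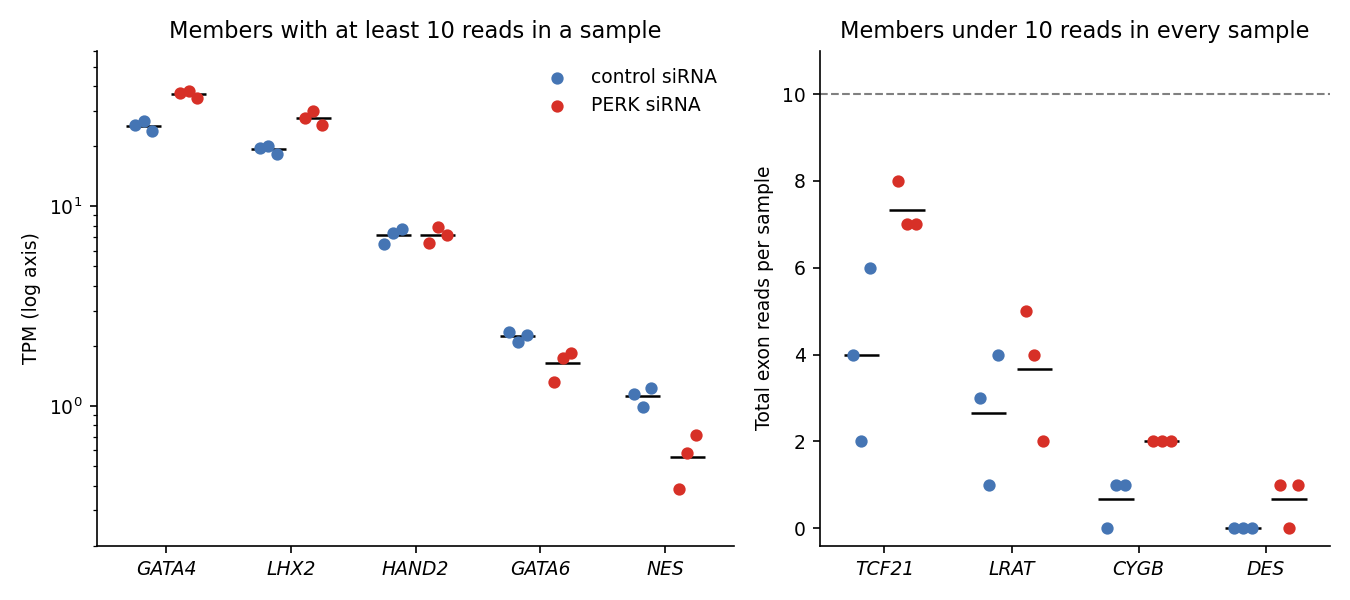
Levels of the 9 members in each sample. Left, TPM on a log axis for the 5 detected members; right, total exon reads for the 4 undetected members, with the limit of 10 reads dashed; each point is a sample and each black line a group mean (n = 3). GATA4 and LHX2 are higher and NES lower in every PERK siRNA sample, HAND2 points overlap, and DES reaches 1 read at most.

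The detected members kept the same order of level in both groups. On the length-corrected TPM scale GATA4 was the most abundant, at 25.3 ± 1.59 TPM in control and 36.5 ± 1.55 TPM in PERK siRNA samples (SD, n = 3 each). LHX2 followed at 19.3 ± 0.92 and 27.8 ± 2.14 TPM, HAND2 at 7.18 ± 0.63 and 7.18 ± 0.67 TPM, GATA6 at 2.23 ± 0.13 and 1.64 ± 0.28 TPM, and NES at 1.12 ± 0.12 and 0.56 ± 0.17 TPM (SD, n = 3 each). Within each group the TPM ranges of neighbours in this order did not overlap. GATA4 exceeded 66.0% of the 16842 genes with a read by mean TPM and LHX2 exceeded 60.5%, whereas NES exceeded 25.4%. Below NES the order broke down. With PERK siRNA the lowest NES sample (0.38 TPM) lay under the highest TCF21 sample (0.42 TPM), and the ranges of LRAT and CYGB overlapped in both groups.

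Sequence around the transcription start is shown for the 4 detected members with an entry in the RefSeq promoter table (GRCh38.p14), because their results differ under the same siRNA: LHX2 rose, NES fell, and GATA6 and HAND2 did not pass the test. Entries matched 6 of the 9 members. Each window runs from 250 bases before to 50 bases after the start, 5′ to 3′ on the gene's own strand. Capitals mark matches, on either strand, to a GATA site, a homeodomain core (spelled TAATTA) or a CCAAT box (by its own letters). The GATA site was searched in the spelling AGATAA and also as TGATAA, and with a final G in place of A as AGATAG and likewise as TGATAG.
LHX2 (chr9:124011518-124011817, plus strand): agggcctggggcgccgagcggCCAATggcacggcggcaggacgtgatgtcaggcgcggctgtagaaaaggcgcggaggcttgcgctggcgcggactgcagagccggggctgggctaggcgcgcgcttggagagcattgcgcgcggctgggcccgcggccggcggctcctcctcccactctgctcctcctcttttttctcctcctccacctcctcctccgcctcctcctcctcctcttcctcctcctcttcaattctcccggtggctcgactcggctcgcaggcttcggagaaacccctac
NES (chr1:156677358-156677657, minus strand): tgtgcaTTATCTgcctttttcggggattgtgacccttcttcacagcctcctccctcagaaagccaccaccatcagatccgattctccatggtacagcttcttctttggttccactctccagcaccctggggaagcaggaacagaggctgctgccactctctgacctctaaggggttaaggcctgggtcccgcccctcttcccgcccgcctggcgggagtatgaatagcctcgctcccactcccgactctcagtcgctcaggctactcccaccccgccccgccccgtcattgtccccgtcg
GATA6 (chr18:22169339-22169638, plus strand): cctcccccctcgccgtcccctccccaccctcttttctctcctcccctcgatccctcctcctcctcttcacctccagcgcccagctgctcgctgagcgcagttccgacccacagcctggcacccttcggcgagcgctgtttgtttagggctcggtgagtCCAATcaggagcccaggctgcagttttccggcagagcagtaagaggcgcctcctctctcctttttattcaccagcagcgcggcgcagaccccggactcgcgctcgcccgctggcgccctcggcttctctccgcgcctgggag
HAND2 (chr4:173530180-173530479, minus strand): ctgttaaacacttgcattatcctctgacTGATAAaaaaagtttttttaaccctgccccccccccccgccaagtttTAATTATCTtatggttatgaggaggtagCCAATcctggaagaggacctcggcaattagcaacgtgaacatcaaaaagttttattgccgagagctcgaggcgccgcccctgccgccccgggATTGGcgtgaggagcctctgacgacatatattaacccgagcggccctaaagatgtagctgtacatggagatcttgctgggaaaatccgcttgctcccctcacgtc

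The 4 windows differed in composition and in the motifs they held. LHX2, which rose, had a GC content of 69.0% and 1 CCAAT box, at position -229 from the start site. That start site lies inside the gene as annotated, whose first base is 124001670, and which start the cells used was not tested. NES, which fell, had 60.3% GC and 1 GATA site, as its reverse complement TTATCT, at position -244. GATA6 had 66.7% GC and 1 CCAAT box at position -92. Its start site also lies inside the gene as annotated, whose first base is 22169443, and its use was likewise not tested. HAND2 was the least GC-rich at 50.3%, and held 2 GATA sites, 2 CCAAT boxes and 1 homeodomain core, which overlaps a GATA site in the run TAATTATCT. Among all 35116 windows of the same length, 25.0% held a GATA site, 34.6% a CCAAT box and 4.84% a homeodomain core. E-boxes (CANNTG), the core bound by basic helix-loop-helix factors, were present once each in the GATA6 and HAND2 windows and not matched in those of LHX2 and NES, against 68.7% of all windows. The ATF4 composite site (TGATGNAA, both strands) was matched in none of these 4 windows and in 3.62% of all. These are matches of letters within short windows and show no binding.

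Of the GATA factor genes, GATA4 rose and GATA6 did not pass the test. GATA4 (ENSG00000136574; chromosome 8, 11676959 to 11760002, plus strand, GRCh38), a zinc finger factor that in mouse liver restrains stellate cell activation, had 573, 569 and 528 reads in the control samples. In the PERK siRNA samples it had 762, 845 and 772 reads, each above every control. Mean CPM was 28.999 ± 1.595 in controls and 42.043 ± 1.645 with PERK siRNA (SD, n = 3 each). This is a 1.45-fold rise (95% interval 1.35 to 1.56; log2 0.54, SE 0.05; edgeR adjusted p = 2.1e-10). That change exceeded in size those of 75.1% of tested genes. Among the 2434 tested genes within 0.5 log2 CPM of its level, 73.3% passed the test.

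GATA6 (ENSG00000141448; chromosome 18, 22169443 to 22202528, plus strand) encodes the closest relative of GATA4 in this list. It was counted at 50, 42 and 48 reads in the control samples and at 26, 37 and 39 reads with PERK siRNA, so that the groups did not overlap although counts were small. Its CPM was 2.43 ± 0.15 and 1.79 ± 0.30 (SD, n = 3 each), and the log2 fold change of -0.43 (SE 0.20) had an edgeR adjusted p of 0.061, with a 95% interval of -0.85 to -0.01 and an unadjusted p of 0.043. When edgeR was run on unique exon reads the adjusted p was 0.040, although every GATA6 read was unique, so its own counts were identical and the rest of the table had changed. Over the 17 other settings tried, the adjusted p ranged from 0.040 to 0.23. Of 681 tested genes at a similar level, 45.1% passed. Antisense transcripts annotated over the locus, GATA6-AS1 and AC091588.3, share 6.08% and 8.14% of its annotated exon bases, and neither is a row of the deposited tables.

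Because both GATA genes were counted in the same libraries, their ratio needs no scaling between samples. There were 11.5, 13.5 and 11 GATA4 reads for each GATA6 read in the control samples and 29.3, 22.8 and 19.8 in the PERK siRNA samples. The ratio averaged 12.0 ± 1.36 in controls and 24.0 ± 4.86 with PERK siRNA (SD, n = 3 each), and the groups did not overlap. On the log2 scale the ratio was 0.99 higher with PERK siRNA (two-sided exact permutation test p = 0.1, which is the smallest value that 3 samples against 3 allow). Leaving out PERK siRNA sample 1, which held the highest ratio, gave a difference of 0.83.

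**Figure D2:**
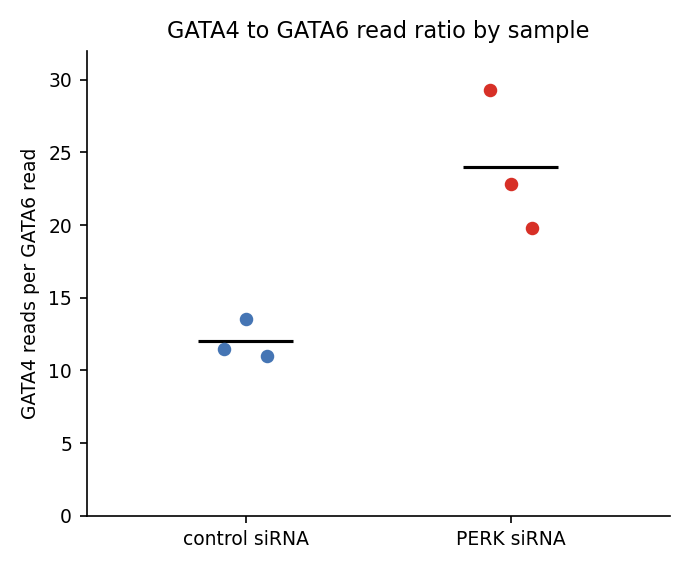
GATA4 reads divided by GATA6 reads in each sample, on a linear axis from 0; points are samples and black lines group means (n = 3). The 3 control samples lie between 11 and 13.5 and the 3 PERK siRNA samples between 19.8 and 29.3.

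LHX2 changed by nearly the same factor as GATA4. The gene (ENSG00000106689; chromosome 9, 124001670 to 124033301, plus strand) had 275, 265 and 254 reads in control samples. With PERK siRNA it had 358, 417 and 355 reads, and again no sample of one group reached the other. Mean CPM was 13.8 ± 0.56 in controls and 19.96 ± 1.44 with PERK siRNA (SD, n = 3 each), again a 1.45-fold rise (95% interval 1.31 to 1.61; log2 0.53, SE 0.07; edgeR adjusted p = 1.7e-07). The ratio of the mean TPM of GATA4 to that of LHX2 was 1.31 in both groups. Among 1858 tested genes of similar level, 69.9% passed.

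HAND2 (ENSG00000164107; chromosome 4, 173524969 to 173530229, minus strand), a helix-loop-helix factor of mesodermal derivatives, gave no detectable difference. Its reads were 108, 114 and 127 in the control samples and 99, 129 and 117 in the PERK siRNA samples, and the groups overlapped. At 6.06 ± 0.54 and 6.08 ± 0.53 CPM (SD, n = 3 each) its log2 fold change was 0.01 (SE 0.12, edgeR adjusted p = 0.96). The 95% interval of the fold change, 0.85 to 1.19, does not reach the fold estimated for GATA4 or LHX2. HAND2-AS1, on the opposite strand, shares 24.1% of the annotated exon bases of HAND2. The libraries keep strand, but whether the authors' counting used it is not given in the sources used here, so reads of the antisense gene in that stretch may be included.

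TCF21 (ENSG00000118526; chromosome 6, 133889138 to 133895553, plus strand), a marker of the mesenchymal stellate precursor, stayed under the detection limit. It had 4, 2 and 6 reads in control samples and 8, 7 and 7 with PERK siRNA, 34 in all. With no expression filter its fitted log2 difference was 0.88 (SE 0.61; edgeR adjusted p = 0.23). TARID, an antisense gene, covers 30.4% of its exon bases.

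The intermediate filament members were scarce. NES (ENSG00000132688; chromosome 1, 156668763 to 156677397, minus strand) encodes nestin, which co-assembles with vimentin or desmin and is found in activated stellate cells. It had 36, 29 and 38 reads in the control samples and 11, 18 and 22 reads in the PERK siRNA samples, every one of them below the lowest control. Mean CPM was 1.78 ± 0.21 in controls and 0.89 ± 0.27 with PERK siRNA (SD, n = 3 each), so 50.1% of the control level was left. This fall (log2 -0.98, SE 0.27; edgeR adjusted p = 0.0017) was larger in size than those of 91.5% of tested genes, but its 95% interval, -1.53 to -0.44, was the widest of the 5. Only 40.2% of the 661 tested genes at its level passed. DES (ENSG00000175084; chromosome 2, 219418377 to 219426739, plus strand), the muscle-type filament gene used as a stellate marker in rodents, had 0 reads in all 3 control samples and in PERK siRNA sample 2, and 1 read in each of the other PERK siRNA samples. A count of 0 allows up to 0.162 CPM in the shallowest control sample, so no difference was measurable, and the planned ratio of DES to NES could not be formed.

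The 2 members closest to retinoid storage and oxygen handling were undetected as well. LRAT (ENSG00000121207; chromosome 4, 154626945 to 154753118, plus strand) had 3, 1 and 4 reads in control and 5, 4 and 2 reads in PERK siRNA samples, overlapping groups at a mean of 0.11 TPM. CYGB (ENSG00000161544; chromosome 17, 76527356 to 76551175, minus strand) had 0, 1 and 1 reads against 2, 2 and 2, all under the floor of 3 reads. Without the filter on low counts, edgeR gave adjusted p-values of 0.65 for LRAT, 0.34 for CYGB and 0.27 for DES. All reads of the 9 members were placed uniquely.

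**Figure D3:**
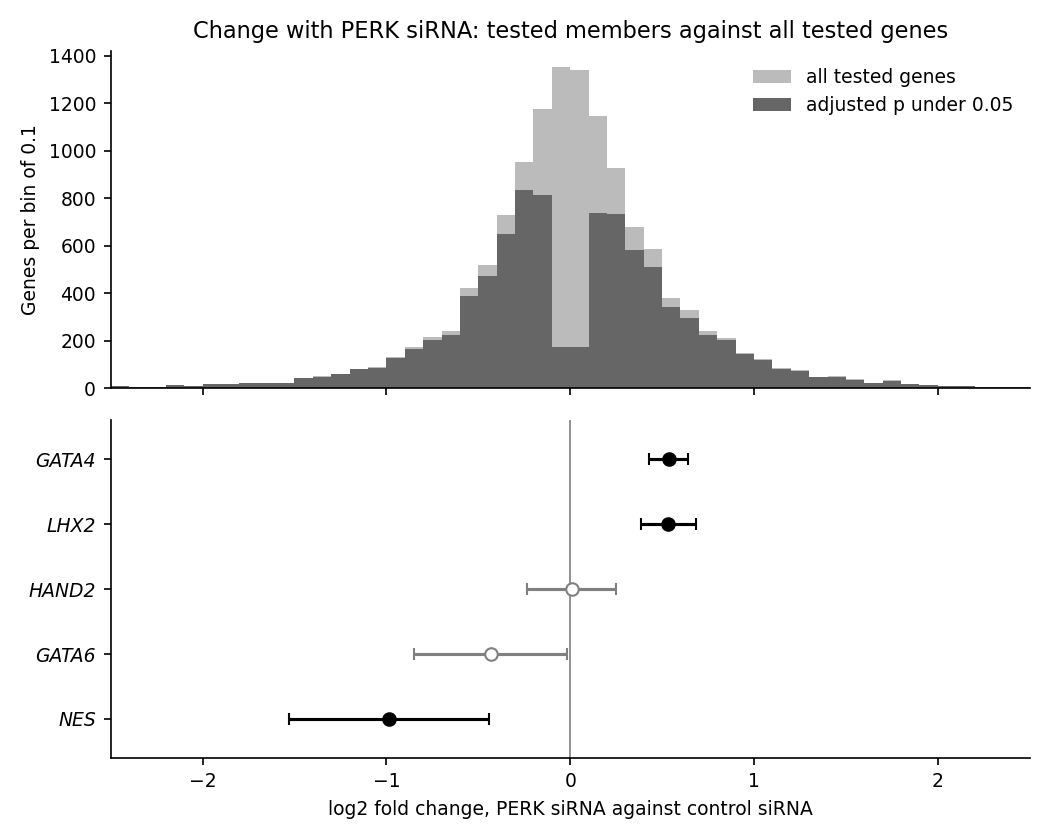
Top, histogram of log2 fold changes of all 12973 tested genes (light) and of those past the threshold (dark); 67 genes beyond 2.5 either way are outside the axis. Bottom, log2 fold change and 95% interval of the 5 tested members, filled where the adjusted p was under 0.05. GATA4 (0.54) and LHX2 (0.53) lie right of 0, NES (-0.98) lies left, and the HAND2 interval spans 0.

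Genes that act with the members were examined through 5 lists, which were chosen with results of these data known and hence give no independent support to any direction. Their counts are to be read against the 34.4% of all tested genes that rose and the 35.0% that fell, so that calls in both directions are common to any list here, and no list was tested against other genes. Among partners and relatives of the transcription factors, 8 of 26 tested genes rose and 12 fell (median log2 fold change -0.14, against 0.00 over all tested genes). The 4 with the smallest adjusted p were TCF4 (-1.94), an E-protein that dimerises with factors such as HAND2 and TCF21; TWIST2 (-1.82), a helix-loop-helix repressor; NR2F2 (0.74), the nuclear receptor COUP-TFII; and FOXF1 (-1.23), a forkhead factor of visceral mesenchyme. TCF4 fell from 33.7 ± 0.73 to 8.72 ± 0.58 TPM (SD, n = 3 each). The other E-protein genes went the opposite way, TCF12 by 0.48 and TCF3 by 0.19 on the log2 scale. LHX9, the closest LIM homeodomain relative of LHX2, rose (0.93), as did LDB1 (0.37), the cofactor that bridges LIM factors, while its paralog LDB2 fell (-0.60). ZFPM2, which encodes the GATA4 cofactor FOG2, rose (0.96). Of the other GATA genes, GATA3 fell (-0.55) and GATA2 rose slightly (0.10, edgeR adjusted p = 0.018). GATA2 did not pass by DESeq2 (adjusted p = 0.095) or, by edgeR, against a null of a 1.2-fold change. Nor did GATA2 pass when control sample 3 (edgeR adjusted p = 0.051) or PERK siRNA sample 3 (0.060) was left out. WT1, a mesothelial and stellate precursor factor, fell (-0.55). The genes from TCF12 to WT1 were chosen after their values were seen. HAND1 had 0 reads in every sample.

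Of 28 listed genes of retinoid handling 19 were tested, of which 9 rose and 5 fell (median 0.14), and 8 were undetected; by DESeq2, 3 fell. Over all tested genes 69.5% were called, and the share here is close to that. RDH11, a retinal reductase, fell from 282.2 ± 6.19 to 119.5 ± 2.37 TPM (SD, n = 3 each; log2 fold change -1.24). PLIN2, which coats lipid droplets, fell as well (-0.79). The retinoid receptor genes RXRA (0.90) and RARB (0.90) rose. LRAT had 1 to 5 reads in each sample, while ALDH1A1, a retinal dehydrogenase gene, and CRABP1, a retinoic acid binding protein gene, had 0 reads throughout. STRA6, the retinol uptake receptor, was scarce (3 to 16 reads) and fell (-1.31), but not past the threshold by DESeq2 (adjusted p = 0.057) or when PERK siRNA sample 1 (0.062) or 3 (0.064) was left out. DHRS3, another retinal reductase, fell (-0.88) and the retinol dehydrogenase gene RDH10 rose (0.31). ALDH1A1, CRABP1, STRA6, DHRS3 and RDH10 were picked with their values in view.

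Among 18 tested genes otherwise tied to the resting state, 6 rose and 9 fell (median -0.33), again beside 34.4% and 35.0% over all tested genes. VDR, the vitamin D receptor, fell from 48.0 ± 0.43 to 16.9 ± 0.54 TPM (SD, n = 3 each; -1.50). The Krüppel-like factor genes moved apart, KLF2 by 1.12 and KLF4 by -1.23 on the log2 scale, and ETS2 fell (-0.83). HGF, the hepatocyte growth factor that stellate cells secrete, was scarce (3 to 34 reads per sample) and fell by 2.47 on the log2 scale. Among other genes chosen, like HGF, with values in view, RGS5, a pericyte regulator of G proteins (0.99), and the parathyroid hormone receptor gene PTH1R (1.73) rose. The matrix glycoprotein gene RELN rose as well (0.63). Counts were low for RGS5 (26 to 95 reads per sample), PTH1R (8 to 41) and RELN (41 to 75). IRF1 (-0.59) and the second adiponectin receptor gene ADIPOR2 (-0.43) fell, and IRF2 (0.34) rose. PPARG, a nuclear receptor of the resting state, had 4 to 11 reads and GFAP 5 to 10, too few for the test.

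**Figure D4:**
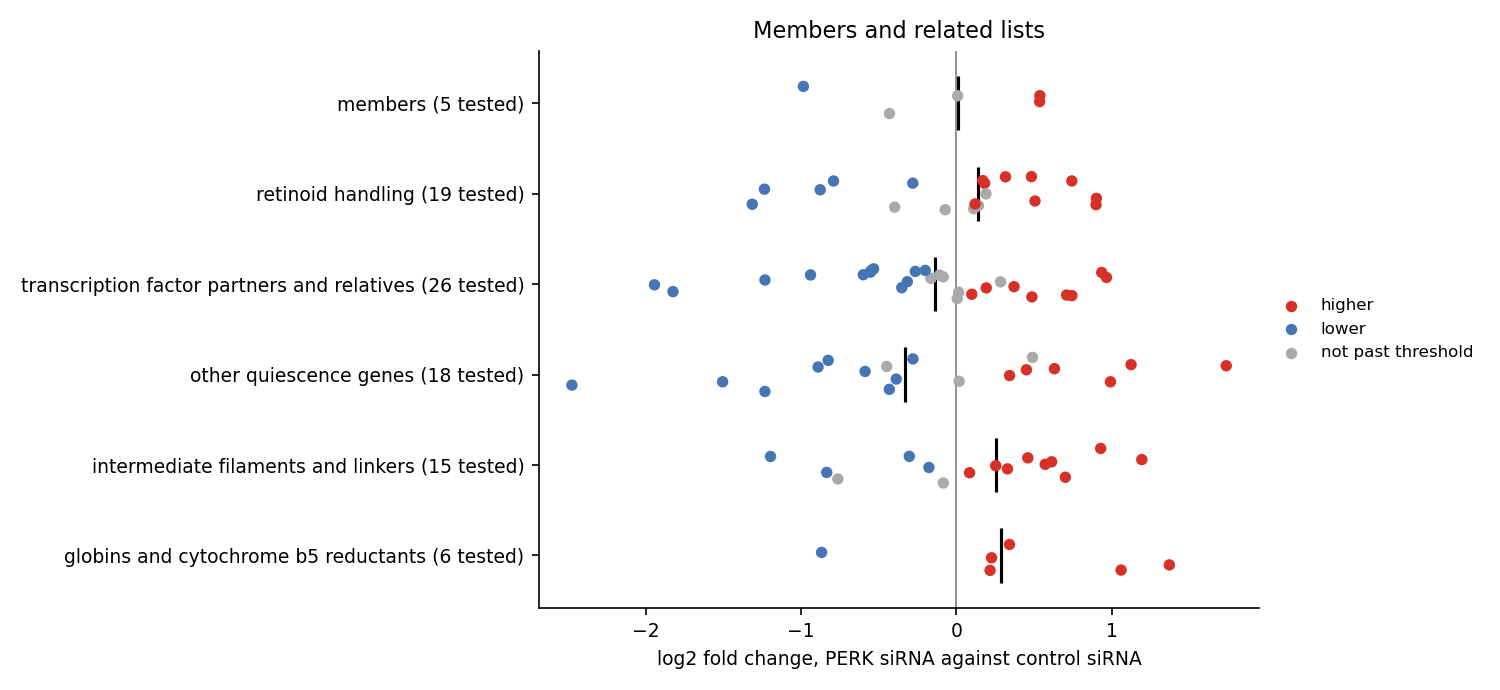
Log2 fold change of each tested gene of the members and the 5 related lists; red points were higher, blue lower and grey did not pass an adjusted p of 0.05, vertical offsets within a row carry no meaning, and black bars are medians. Every list holds genes on both sides of 0, with medians from -0.33 to 0.28.

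Of 15 tested filament and linker genes around DES and NES, 9 rose and 4 fell (median 0.25), with 34.4% and 35.0% of all tested genes rising and falling. The actin crosslinker FLNC (0.93) and the lamin genes LMNB1 (1.19) and LMNB2 (0.46) rose, and CDK5, a kinase for which nestin is a substrate, fell (-0.83). VIM, the filament partner of nestin, rose from 2700 ± 33.1 to 3202 ± 12.6 TPM (SD, n = 3 each; log2 fold change 0.25), while the NES level fell. SYNM (0.33) and SYNC (0.57), which encode the desmin-binding synemin and syncoilin, rose although DES was undetected. The choice of VIM, SYNM and SYNC followed inspection of their values. Against a null of a 1.2-fold change, edgeR no longer called VIM (adjusted p = 0.73), SYNM (0.10), TCF3 (1), RDH10 (0.24) or IRF2 (0.14). Around CYGB, the 10 other globin genes that were listed were all undetected, at no more than 5 reads. The cytochrome b5 system, which reduces cytoglobin, was well expressed: CYB5R3 rose from 106.9 ± 2.99 to 221.7 ± 3.62 TPM (SD, n = 3 each; 1.06), CYB5B (1.37) and CYB5R1 (0.34) rose, and CYB5R2 fell (-0.87). The CYB5R1 call was lost against a 1.2-fold null (edgeR adjusted p = 0.063).

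Markers of other liver cell types differed between the groups too, and their part in the member results was not tested. Summed TPM of 6 smooth muscle markers was 135.3 to 140.0 in control and 234.2 to 239.0 in PERK siRNA samples, mostly from SMTN and TAGLN. All 6 were higher, beside 34.4% of all tested genes. Counts were low for MYH11 (3 to 18 reads per sample, groups overlapping) and LMOD1 (5 to 35). These genes, TAGLN among them, are also expressed by activated stellate cells. Endothelial markers summed to 5.90 to 6.12 and 1.85 to 2.43 TPM. Of 3 tested, PECAM1 alone was lower (log2 fold change -3.80, 9 to 177 reads per sample), and LYVE1 and CLEC4G had 0 reads. Cholangiocyte markers summed to 130.6 to 138.4 and 85.6 to 94.8 TPM, nearly all from SOX9 and KRT7, with CFTR at 0 reads. Macrophage and leukocyte markers summed to 131.6 to 138.2 and 119.6 to 123.2 TPM, mostly CD68, which did not pass (-0.05, edgeR adjusted p = 0.20). CSF1R (-3.14, 5 to 108 reads per sample) and CD14 (-0.48) were lower, with CD163, MARCO, C1QA, C1QB and CD3E at 0 reads. Portal fibroblast markers summed to 294.2 to 320.0 and 394.9 to 403.6 TPM. Of 5 tested, FBLN2 (mean 174.0 and 281.0 TPM) and THY1 (0.44) were higher, and GREM1 (127.6 and 113.6 TPM) and FBLN1 did not pass. CD34 was lower (-1.14, 20 to 65 reads per sample), with ELN and MSLN at 1 read or fewer. Of the 14 activated stellate or mesenchymal markers, 7 were higher and 5 lower, beside 34.4% and 35.0% of all tested genes. ACTA2 (log2 fold change 1.95, mean 15.2 and 58.5 TPM) and COL1A2 (1.199) were among the higher. COL3A1 (-0.89) and PDGFRA (-1.41, 17 to 68 reads per sample) were among the lower. Whether the activation state of the cells differed was not tested. ACTA2, COL1A2, COL3A1, PDGFRA, CSF1R, THY1 and CD34 were picked with their values in view. Hepatocyte markers summed to 5.16 to 6.27 and 3.79 to 4.601 TPM, mostly SERPINA1, which did not pass (-0.19). ASGR1, the other hepatocyte marker tested, was lower (-0.75, 14 to 32 reads per sample).

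**Figure D5:**
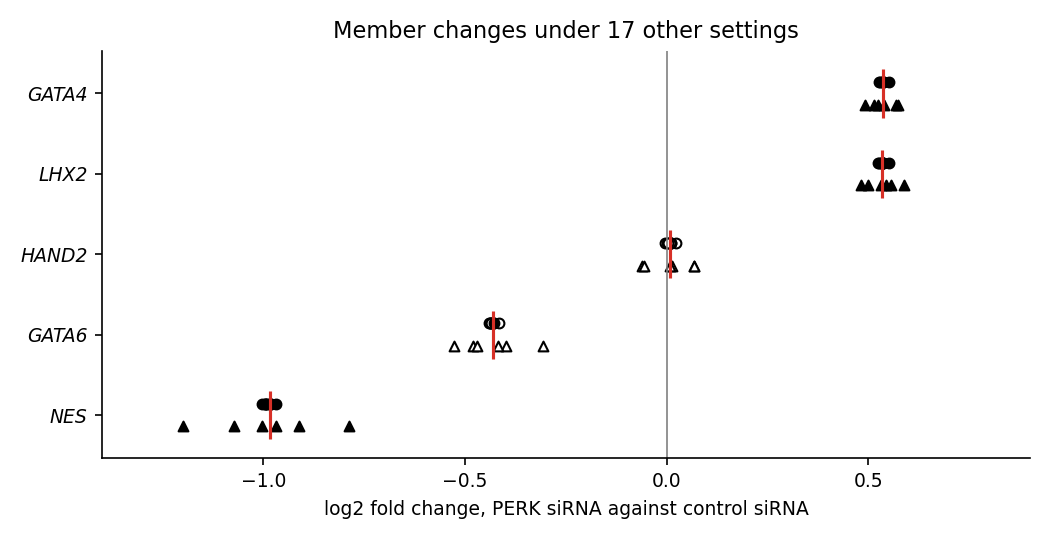
Log2 fold change of the 5 tested members under 17 other settings. Circles are other scalings, filters, tools or read sets and triangles leave out 1 sample, both filled where the adjusted p was under 0.05; the red line is the reported value. GATA4 and LHX2 stay between 0.48 and 0.59, NES between -1.20 and -0.79, and HAND2 straddles 0.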

How the data were processed

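Per the labels' protocols, total RNA was column-purified and strand-specific libraries were built. The submitters' processing notes name hg38 as the build. Aligner, counter and annotation release: not given in the sources used here. Each deposited table holds, per the file headers, a total and a unique exon read count for every gene beside its TPM. Recomputing TPM from the total counts and exon lengths matched the deposited values to a relative difference of 7.1e-08. TPM were used only to compare levels.

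Total exon reads were tested across 12973 genes with edgeR 4.0.16 (R 4.3.3) by its quasi-likelihood test, with TMM factors, filterByExpr, robust dispersion and no covariate, with Benjamini-Hochberg adjustment over all of them and a threshold of 0.05. The procedure was first run on simulated counts, drawn with a dispersion shared by all genes, so that run does not give its error rate in these data. CPM are TMM-normalised. DESeq2 1.42.0 and limma-voom (limma 3.58.1) were alternatives, as were other scalings, filters, unique reads, a 1.2-fold null, the replicate block and leaving out each sample. These were also applied to the other named genes, a step added after seeing the data.

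The members and lists were chosen with earlier results of these data known. Genes planned for naming were the members, EIF2AK3 and up to 4 genes with the smallest adjusted p of each of the 5 related lists. The 2 most abundant of each marker list were planned as well, though not all are printed. Other genes were added with their values in view. Gene positions and exon overlaps came from GENCODE 29 (GRCh38). Pairs of samples within a group differed by more than counting noise (chi-square per degree of freedom 1.65 to 2.31), so none was treated as a copy. Reads outside exons, planned as another readout, were not analysed here.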

Additional observations from a re-analysis of the deposited data

How the results depend on the processing

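The GATA4 and LHX2 rises and the NES fall kept direction and stayed past the threshold in all 17 alternatives. Their log2 fold changes ranged from 0.49 to 0.57, from 0.48 to 0.59 and from -1.20 to -0.79, and the extremes came from leaving out 1 sample each. GATA6 passed only on unique exon reads (-0.43, adjusted p = 0.040), which made 2 lower members in place of 1; fewer genes were tested there (12566). Leaving out 1 sample moved GATA6 between -0.53 and -0.31 and HAND2 between -0.0615 and 0.0676. HAND2 changed sign without control sample 1 (-0.0615) or PERK siRNA sample 2 (-0.0565), with no scaling factors (-0.00318) and with no filter (-0.000562), always far from the threshold; the cause was not tested. Without 1 sample the log2 GATA4 to GATA6 ratio differed by 0.83 to 1.11. DESeq2 called 3 lower retinoid genes in place of 5. Against a null of a 1.2-fold change, 4689 genes were called in place of 9014. Replicate numbers did not pair the samples (same-numbered correlations -0.03 to 0.02). With the replicate number as a block, NES stood at -0.996, GATA4 at 0.54, LHX2 at 0.53, GATA6 at -0.44 and HAND2 at 0.00, with no member call changed and 9028 genes called. The main depth limit is on NES and GATA6, at 11 to 50 reads per sample, and on the 4 undetected members.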

Other observations

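The genes flanking the detected members on the chromosome were compared with them, as a description. Of the 10 nearest tested protein-coding genes on either side of the 5 detected members, 3 were higher and 1 was lower. Of the 8 beside the undetected members, 1 was higher and 5 were lower, so 10 of 18 flanking genes were called, beside 69.5% of all tested genes, and the difference was not tested. Both flanks of LHX2 were higher: NEK6, a mitotic kinase gene 224.3 kb to the right (log2 fold change 0.51, SE 0.05), changed about as much as LHX2 itself, and DENND1A, 71.5 kb to the left, changed less (0.12, SE 0.04). DENND1A did not pass by DESeq2 (adjusted p = 0.094), nor when control sample 2 (0.12) or PERK siRNA sample 3 (0.050) was left out, nor against a 1.2-fold null (1).

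Beside GATA4, FAM167A, 201 kb to the left, was higher (0.41, SE 0.09) and the DNA glycosylase gene NEIL2, 9.64 kb to the right, did not pass (-0.03, SE 0.09). CRABP2, a retinoic acid binding protein gene 22.2 kb from NES, did not pass (0.14, SE 0.13), whereas GPATCH4 on the other side of NES was lower (-0.21, SE 0.05). None of MIB1 (-0.02) and RBBP8 (-0.01) beside GATA6, or SAP30 (0.10) and FBXO8 (0.19) beside HAND2, passed the test. FAM167A and GPATCH4 did not pass against a 1.2-fold null (edgeR adjusted p = 0.055 and 0.970).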
